A study of Rattus norvegicus with 32 samples.

Results

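Complement components, clotting factors and their inhibitors are plasma proteins made mostly by hepatocytes, and their transcripts were followed here in the livers of rats that breathed ozone. A list of 41 gene symbols was matched to the probe sets that the array's annotation ties to exactly 1 gene, and the brightest probe set stood for its gene, by the mean of log2(intensity + 16) over all 32 arrays. Of the 41 genes, 37 had such a probe set, against 13438 genes in the whole table. After a filter on dim probe sets, 36 of the 37 were tested, among 11629 genes in all. Cd55, a membrane inhibitor of complement, lay below the filter, with a mean log2 level of 7.04 against a limit of 7.11. Cd59, F7, F11 and F13b were not analysed here. The group is bright: 33 of the 37 genes lay above the 90th percentile of the genes tested.

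Complement is a cascade of plasma proteases that is started by antibody (C1), by lectins that bind microbial sugars (the mannose-binding lectins with their MASP proteases) or by the alternative pathway (factors B and D). The arms meet at C3 and end in a pore built from C5 to C9. Coagulation runs through proteases that need vitamin K to fibrin, which is formed from fibrinogen, and plasmin dissolves fibrin again. The liver makes most of these proteins, and several, fibrinogen among them, are known as acute-phase proteins that rise in inflammation.

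The animals were male Wistar Kyoto (WKY) rats, 10 weeks old and 250 to 300 g in weight, with no transgene or drug in the labels. Each daily exposure lasted 6 h, to filtered air or to 1 ppm of ozone, a reactive oxygen gas found in smog. Livers were taken as day 1 exposure ended (6 arrays after air, 6 after ozone), as day 2 exposure ended (5 and 5) and 18 h after that (5 and 5), so each harvest had its own air group. Total liver RNA was hybridised to single-colour Affymetrix rat arrays, and each deposited value is a linear intensity of 1 probe set. Whether every array came from its own animal is not in the labels, so p-values measure the spread between these samples, and the number of arrays limits the precision. In whole liver, fewer cells of a type and less RNA per cell cannot be told apart.

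Array medians lay between 147 and 161, and no 2 arrays held identical values. The ratio of 3′ to 5′ actin probes, a sign of RNA quality, was 3.50 on ozone 5 of the 18 h harvest and 2.16 to 2.89 on the other 31 arrays. Nonspecific-binding probes read 54.3 and 66.1 on 2 day 1 arrays (air 2 and ozone 3) against 85.2 to 92.0 on the others. The 7 annotated hepatocyte markers, albumin (Alb) among them, had a summed intensity of 55349 to 63878. By correlation over all genes, 7 arrays lay nearer to another group than to their own. Day 2 air 5 correlated at -0.52 with its own group and at 0.60 with day 2 ozone. Day 2 ozone 5 correlated at -0.25 with its own group and at 0.66 with ozone at 18 h. Air 1 and air 5 of the 18 h harvest correlated at 0.26 and 0.10 with their own group, and at 0.70 with ozone at 18 h and 0.61 with day 1 air. Those 4 arrays, named in an earlier analysis of these data, were left out together as an alternative. Its values are given where they add or remove a call. The 4 were picked by their values in these data, so leaving them out can by itself widen differences and narrow the spread. Calls made that way are no separate evidence. Fewer arrays then remain in both day 2 groups and in the 18 h air group. The other 3 of the 7 arrays were kept: day 1 air 5, day 2 air 1 and day 2 air 2. They correlated at 0.51, -0.02 and 0.30 with their own groups. With the air group of the other day they correlated at 0.61, 0.66 and 0.61. Day 2 air 1 thus lay further from its own group than air 1 and air 5 of the 18 h harvest, which were left out. The choice of the 4 did not follow the own-group correlation alone.

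Promoter sequence was taken from RefSeq (build GRCr8) for genes that stand on either side of the results: the 3 fibrinogen chains, which passed in no comparison by their brightest probe sets, and plasminogen (Plg) and antiplasmin (Serpinf2), which fell on day 1. Each line gives up to 200 bases before the gene's outermost annotated start, 5′ to 3′ on the gene's strand. Capitals mark the motifs searched on both strands. They were GTTAAT (part of the element of HNF1, a hepatocyte factor), TTGCNNAA (C/EBP), TTCNNNGAA (STAT), CTGGGA (an interleukin 6 element), CAAAGTC (HNF4) and ACANNNTGT (glucocorticoid receptor).
Fga, chr2:170671969-170672168, plus strand: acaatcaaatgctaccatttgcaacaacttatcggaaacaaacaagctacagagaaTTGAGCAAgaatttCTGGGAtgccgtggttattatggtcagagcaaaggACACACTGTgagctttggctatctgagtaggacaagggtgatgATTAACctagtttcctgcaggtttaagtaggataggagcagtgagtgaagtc
Fgb, chr2:170700876-170701075, minus strand: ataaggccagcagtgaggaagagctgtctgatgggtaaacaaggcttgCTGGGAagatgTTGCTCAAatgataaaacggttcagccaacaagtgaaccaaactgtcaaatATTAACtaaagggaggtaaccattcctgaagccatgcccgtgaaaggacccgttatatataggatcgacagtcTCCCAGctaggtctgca
Fgg, chr2:170652833-170652928, plus strand: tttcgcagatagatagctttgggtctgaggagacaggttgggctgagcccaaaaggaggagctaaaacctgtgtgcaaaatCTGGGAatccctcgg
Plg, chr1:50915407-50915606, minus strand: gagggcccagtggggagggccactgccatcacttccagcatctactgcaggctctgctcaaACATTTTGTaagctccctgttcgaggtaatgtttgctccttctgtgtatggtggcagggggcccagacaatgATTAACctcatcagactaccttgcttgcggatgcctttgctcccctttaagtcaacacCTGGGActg
Serpinf2, chr10:60778783-60778982, minus strand: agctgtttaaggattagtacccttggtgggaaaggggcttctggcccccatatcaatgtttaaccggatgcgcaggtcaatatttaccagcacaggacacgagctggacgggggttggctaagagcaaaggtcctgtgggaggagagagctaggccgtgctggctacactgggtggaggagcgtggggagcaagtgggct

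Fga and Fgb share an HNF1, a C/EBP and a CTGGGA match in these windows, Plg has the first and the last of these, and none of the 6 motifs was found in the Serpinf2 window. A promoter entry was found for 28 of the 37 genes, and for 17 of them the window ended at the outermost start. In the 250 bases before the start, GTTAAT was in 7 of these 17 and in 7.3% of 19031 rat promoters treated alike. TTGCNNAA was in 6 of 17 (9.65% of all promoters), TTCNNNGAA in 6 (8.06%) and CTGGGA in 10 (24.8%). CAAAGTC was in none of the 17 (4.24%), and ACANNNTGT was in Fga and Plg (6.22%). A match says only that these letters are present. Fgg, Fga and Fgb lie in a row on chromosome 2 with no coding gene between neighbours, as do C2 with Cfb and C8a with C8b elsewhere.

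The first comparison asked what a single exposure did by its end. None of the 36 genes rose and 13 fell, which is 36.1%, where 29.5% of all genes tested were called, 13.1% higher and 16.4% lower. The genes that fell are prekallikrein (Klkb1), the lectin pathway genes Mbl2 and Masp2, the classical pathway proteases C1s and C2, the pore components C8b and C9, factor X (F10), protein C (Proc), protein S (Pros1) and the 3 fibrinolysis genes Plg, Serpinf2 and Cpb2. Differences lay below 0 for 32 of 36 genes, with a median of -0.10 log2 against 0.00 over all genes. Most falls were small: 5 genes fell by over 0.2 log2 and the other 8 by less. All p-values given here are from limma, adjusted by the Benjamini-Hochberg method over all genes tested, with a threshold of 0.05.

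**Figure D1:**
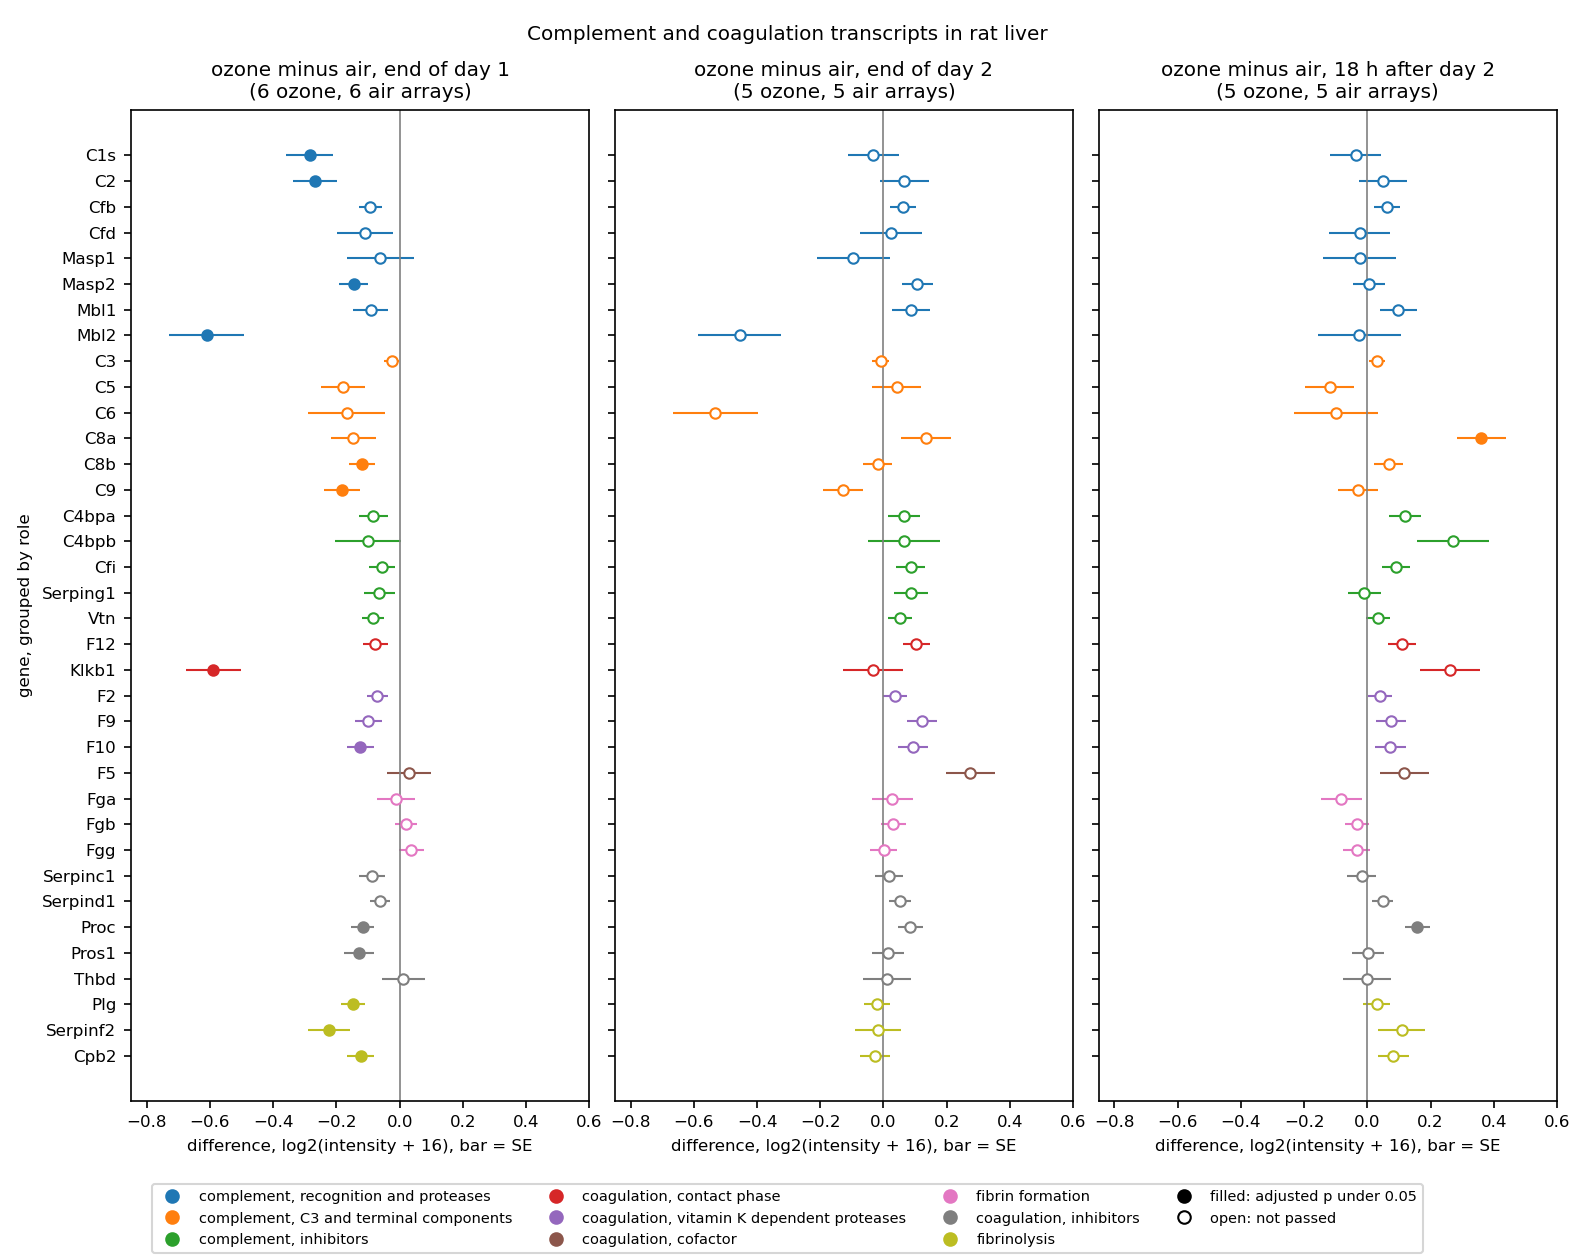
Difference in log2(intensity + 16) between ozone and air for 36 complement and coagulation genes at each harvest (bars, standard error; filled points, adjusted p under 0.05; colours, role). On day 1, 32 of 36 points lie left of 0 and 13 are filled, on day 2 none is filled, and at 18 h only C8a and Proc are.

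Klkb1 encodes plasma prekallikrein, which activates factor XII and releases bradykinin from kininogen. Its intensity on day 1 was 2506 to 2767 (median 2648) after air and 1554 to 2018 (median 1749) after ozone. The groups were far apart and did not overlap, a fall of 33.5% (-0.59 ± 0.09 log2, SE, n = 6 and 6, adjusted p = 5.9e-06). Groups failed to overlap downwards for 7 of the 36 genes (C2, C9, Cpb2, Klkb1, Masp2, Mbl2 and Serpinf2), and for 8.76% of all genes. None of the 36 separated upwards, where 7.2% of all genes did. The other contact phase gene, F12 (factor XII), differed by -0.08 ± 0.04 (adjusted p = 0.16).

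Among the recognition molecules and early proteases of complement, 4 of 8 fell. Mbl2, a mannose-binding lectin, read 4606 to 4879 (median 4710) after air and 2673 to 3458 (median 3160) after ozone. Every ozone array lay below every air array, a fall of 34.5% (-0.61 ± 0.12, adjusted p = 0.00021). Masp2, the lectin pathway protease that cleaves C4 and C2, read 1393 to 1492 (median 1415) after air. After ozone it read 1217 to 1360 (median 1283), a fall of 0.15 ± 0.05 log2 (adjusted p = 0.015). The second lectin, Mbl1, differed by -0.09 ± 0.05 (adjusted p = 0.22).

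C1s is the protease of C1 that starts the classical pathway, and C2 supplies the catalytic part of its C3 convertase. C1s was 4094 to 5060 (median 4758) after air and 3409 to 4190 (median 3843) after ozone, groups that overlapped slightly. It fell by 0.28 ± 0.07 log2 (adjusted p = 0.0038). C2 was 1528 to 1708 (median 1625) after air and 1238 to 1469 (median 1357) after ozone, without overlap, and fell by 0.27 ± 0.07 (adjusted p = 0.0037). Cfb (factor B), the neighbour and relative of C2 in the alternative pathway, lay just outside the threshold at -0.09 ± 0.04 (adjusted p = 0.061). Masp1 and Cfd did not pass.

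Of the 6 genes for C3 and the terminal components, 2 fell. C9, whose copies line the pore, read 6729 to 7266 (median 6855) after air and 5732 to 6253 (median 6175) after ozone, without overlap (-0.18 ± 0.06, adjusted p = 0.015). C8b, a chain of C8, read 3378 to 3611 (median 3543) after air and 3092 to 3529 (median 3210) after ozone (-0.12 ± 0.04, adjusted p = 0.027). C5, the source of the C5a fragment, lay just outside the threshold at -0.18 ± 0.07 (adjusted p = 0.054). C3, the hub of the cascade, differed by -0.02 ± 0.02 and did not pass. None of the 5 complement inhibitors tested passed, and vitronectin (Vtn) was nearest, at -0.09 ± 0.04 (adjusted p = 0.066).

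All 3 fibrinolysis genes fell, where 16.4% of all genes tested were called lower. Cpb2 lost its call in 6 of 12 cases with single arrays left out. Plg, the precursor of plasmin, was 6598 to 7055 (median 6761) after air and 5817 to 6655 (median 6110) after ozone, with 1 ozone array inside the air range (-0.15 ± 0.04, adjusted p = 0.0040). Serpinf2, the inhibitor of plasmin, was 2435 to 2664 (median 2456) after air and 1883 to 2316 (median 2156) after ozone, without overlap (-0.22 ± 0.07, adjusted p = 0.011). Cpb2, a carboxypeptidase that trims fibrin so that less plasminogen binds, was 3550 to 3790 (median 3716) and 3293 to 3522 (median 3399), also without overlap (-0.12 ± 0.04, adjusted p = 0.033). The enzyme precursor and 2 genes that restrain it moved the same way, as did most of the list: 32 of 36 genes lay below 0.

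**Figure D2:**
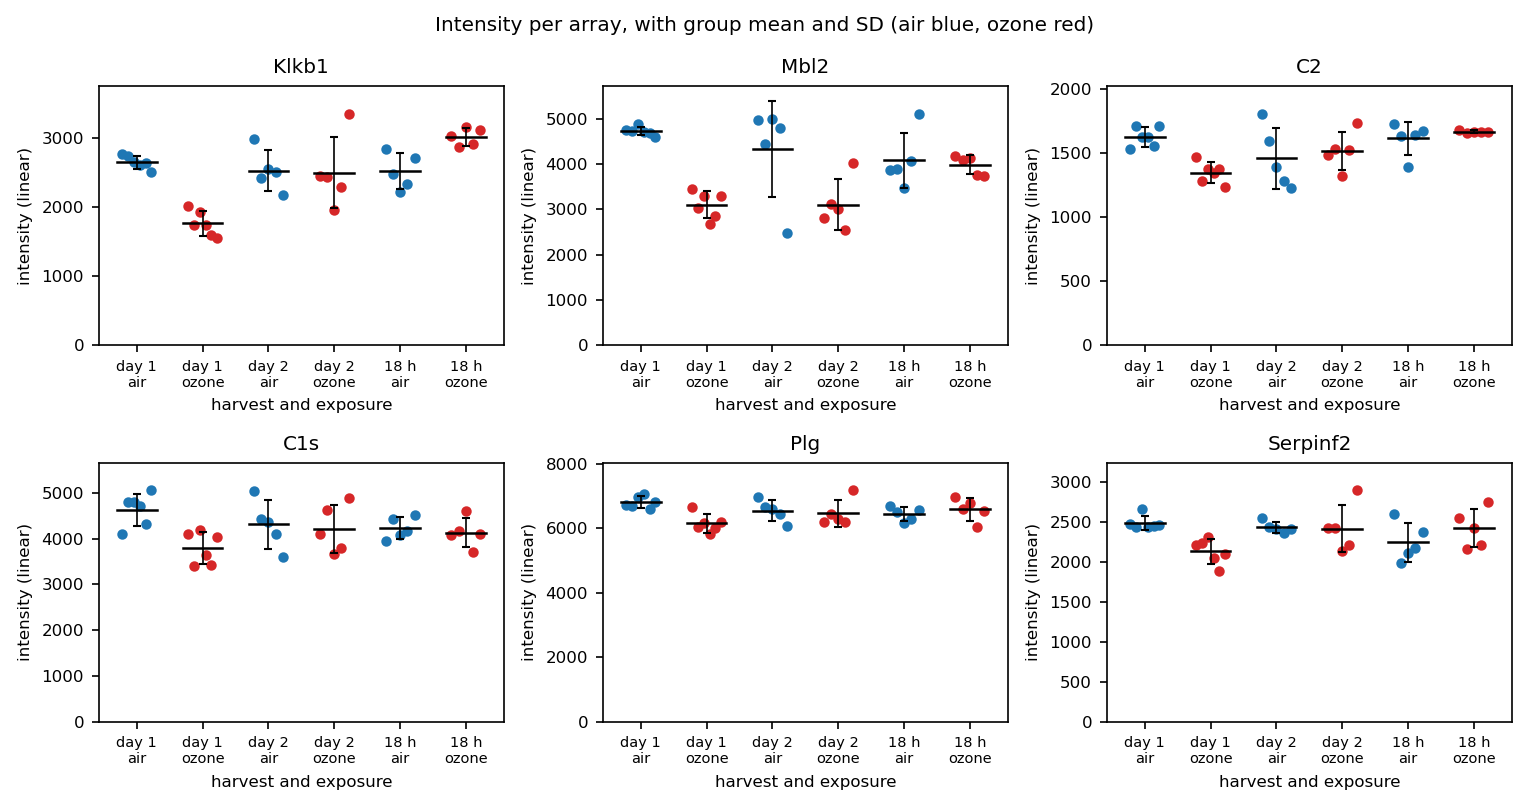
Linear intensity of 6 genes that fell on day 1 in each of the 32 arrays, by harvest and exposure (points, arrays; line, group mean; bars, SD). On day 1 the ozone arrays of Klkb1 (1554 to 2018) and Mbl2 (2673 to 3458) lie below all air arrays, and on day 2 single arrays of Mbl2 lie with the other group.

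In the clotting cascade itself, 1 of 3 vitamin K dependent proteases fell. F10, the protease that turns prothrombin into thrombin, read 3648 to 4024 (median 3781) after air and 3159 to 3828 (median 3494) after ozone, with overlap (-0.12 ± 0.04, adjusted p = 0.029). F2 (prothrombin), F9 and the cofactor F5 did not pass, at -0.07, -0.10 and 0.03 log2. Of 5 clotting inhibitors, Proc and Pros1 fell, Proc by its brighter probe set only: its other one rose (0.42 ± 0.10, adjusted p = 0.0020), and their mean was higher by 0.15. Proc, the precursor of the protease that inactivates factors V and VIII, read 3669 to 3830 (median 3782) after air and 3206 to 3670 (median 3485) after ozone (-0.12 ± 0.04, adjusted p = 0.015). Pros1, its cofactor, read 1414 to 1489 (median 1467) and 1248 to 1534 (median 1314), where 1 ozone array lay above all air arrays (-0.13 ± 0.05, adjusted p = 0.035).

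By their brightest probe sets, the fibrinogen genes did not pass at any harvest. The dimmer probe set of Fga did, higher on day 1 (0.75 ± 0.19, adjusted p = 0.0041), as did the mean of both (0.37 ± 0.11, adjusted p = 0.010). On day 1, Fga, Fgb and Fgg differed by -0.01, 0.02 and 0.04 log2, with 95% intervals of -0.13 to 0.11, -0.05 to 0.09 and -0.04 to 0.12. Fgb read 9353 to 9901 (median 9641) after air and 9481 to 10622 (median 9591) after ozone, so the groups lay over each other. At 18 h the intervals were -0.21 to 0.05, -0.11 to 0.05 and -0.12 to 0.05. The highest value of any probe set on these arrays was 15558. Whether probe sets as bright as these fibrinogen ones could register a rise was not tested.

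Of the 13 day 1 falls, 7 (C1s, C2, C9, Klkb1, Mbl2, Plg and Serpinf2) kept their call in all 13 other settings and with each of 12 arrays left out. The other 6 (C8b, Cpb2, F10, Masp2, Proc and Pros1) lost it in some, and Proc also changed direction in 1 setting, the mean of its probe sets. With single arrays left out, Pros1 lost it in 7 of 12 cases, Cpb2 in 6, C8b in 5, F10 in 4 and Proc in 1. Masp2 lost it only in 2 of the other settings. Summed hepatocyte marker intensity on day 1 was 60455 to 63878 after air and 57053 to 61659 after ozone, and 2 of 7 markers passed, both lower. Summed Kupffer cell markers (6 of 8 annotated) were 3352 to 4180 after air and 2636 to 4491 after ozone, and 1 of 6 passed, lower. Of the markers of other cells, 1 of 3 for neutrophils and monocytes, 2 of 6 for endothelium, 1 of 7 for stellate cells and 1 of 5 for cholangiocytes were lower, none of 6 for lymphocytes or 4 for platelets passed, and their part in the falls was not tested. Of all genes tested, 16.4% were called lower on day 1 and 13.1% higher. Summed adipose markers (5 of 6 annotated) were 863 to 1020 after air and 1058 to 1375 after ozone, without overlap, and 1 of 2 tested rose. Summed pancreas markers (6 of 6) were 2056 to 2335 and 1844 to 2039, also without overlap, and 1 of 6 fell. Each of these 2 sums follows largely 1 gene. Over all arrays Cidec read 402 to 1127, and the other adipose markers lay between 78 and 130. Cela1 read 884 to 1639, and the other pancreas markers lay between 110 and 169. The part of these markers was not tested either.

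The second comparison asked what remained as a second daily exposure ended. By limma, 0 of 36 genes passed in either direction, where 0.464% of all genes were called higher and 0.241% lower. At an unadjusted p under 0.05, 5 of 36 were higher and 3 lower, where 7.84% and 5.15% of all genes were. Groups did not overlap for 0 genes higher and 0 lower, and for 1.06% and 0.43% of all genes. The smallest p-values were those of C6, F5 and Mbl2, and all 3 passed once the array air 5 was left out, where 8.41% of all genes were called in either direction.

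Mbl2 shows this most plainly. Its day 2 air arrays read 4982, 4442, 4998, 4793 and 2483, and its ozone arrays 2806, 3127, 3013, 2536 and 4027. The first 4 air arrays lay above all ozone arrays, but air 5 lay below them all and ozone 5 lay above the other ozone arrays. The difference was -0.46 ± 0.13 (n = 5 and 5, adjusted p = 0.077). Without air 5 it was -0.64 ± 0.09 (adjusted p = 0.00010), and without the 4 arrays near another group -0.74 ± 0.07 (adjusted p = 3.0e-08). Air 5 was singled out by these same values, as were the 4 arrays, so the smaller p-values are no separate evidence of a fall.

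C6, which joins C5b in the terminal complex, read 1382, 1442, 1037, 1233 and 930 after air and 741, 741, 770, 984 and 876 after ozone. Only 1 air array reached into the ozone range (-0.53 ± 0.13, adjusted p = 0.054). F5, factor V, the cofactor of factor X, read 2368, 2092, 2088, 2263 and 2705 after air and 2987, 2546, 2861, 2683 and 2833 after ozone. Here the highest air array again was air 5 (0.28 ± 0.08, adjusted p = 0.073). Without the 4 arrays, F5 was higher (0.33, adjusted p = 0.0018) and Mbl2, C6, Masp1 and C9 lower, while 13.6% of all genes were then called in either direction.

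**Figure D3:**
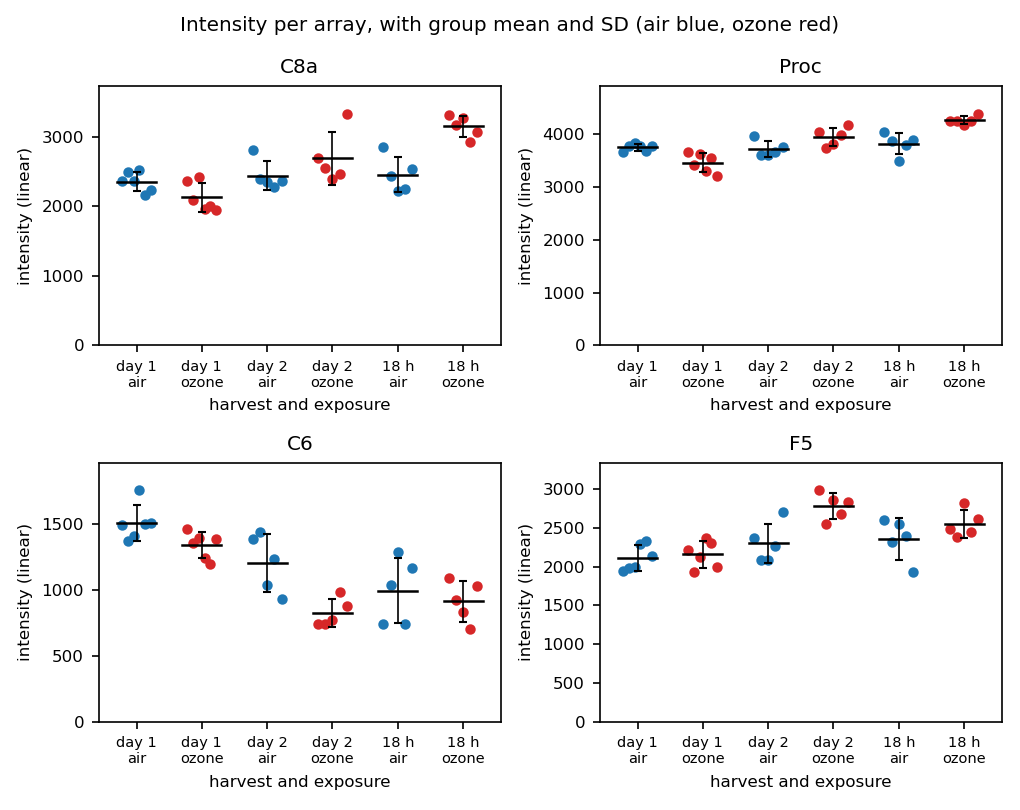
Linear intensity of C8a, Proc, C6 and F5 in each of the 32 arrays, by harvest and exposure (points, arrays; line, group mean; bars, SD). At 18 h every ozone array of C8a (2932 to 3314) and Proc (4189 to 4393) lies above every air array, and on day 2 most ozone arrays of C6 lie below and of F5 above the air arrays.

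The third comparison asked what was left 18 h after the second exposure. At this harvest 2 of the 36 genes rose (5.56%) and none fell, where 1.17% of all genes were called, 0.86% higher and 0.31% lower. At an unadjusted p under 0.05, 6 of 36 were higher and 0 lower, where 8.61% and 3.47% of all genes were. C8a, the chain of C8 that enters the target membrane, read 2854, 2434, 2229, 2252 and 2534 after air and 3314, 3180, 3269, 2932 and 3080 after ozone. All ozone arrays were above all air arrays (0.36 ± 0.08, n = 5 and 5, adjusted p = 0.021).

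Proc read 4049, 3882, 3504, 3808 and 3899 after air and 4263, 4255, 4189, 4248 and 4393 after ozone, again without overlap. The rise was small (0.16 ± 0.04, adjusted p = 0.041), and Proc is the one gene that passed on day 1 (lower) and at 18 h (higher), in directions that turn with the mean of its 2 probe sets. Groups also did not overlap for Klkb1, which read 2846, 2486, 2222, 2337 and 2722 after air and 3028, 2870, 3160, 2913 and 3123 after ozone. Klkb1 did not pass (0.26 ± 0.09, adjusted p = 0.19), though it did without the 4 arrays (0.36 ± 0.08, adjusted p = 0.0049, with 4.95% of all genes called). Upward separation was seen in 3 of 36 genes and in 1.89% of all genes, and downward separation in 0 and in 0.869%.

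C8b, adjacent to C8a in the genome and its partner in the protein, differed by 0.07 ± 0.04 at 18 h (adjusted p = 0.61). C4bpb, the beta chain of the C4b-binding protein, had the next largest difference after C8a (0.27 ± 0.11, adjusted p = 0.29). C8a lost its call without air 3, air 4 or ozone 3 (highest adjusted p = 0.082), and Proc without any one of 9 of the 10 arrays (highest adjusted p = 0.17). Summed Kupffer cell markers did not overlap at this harvest, at 2945 to 3624 after air and 2085 to 2926 after ozone, though 0 of 6 passed. Of other markers, 1 of 6 for endothelium (Stab2, 0.28 ± 0.07) was higher and 1 of 6 for pancreas (Cela1, -0.41 ± 0.09) lower. The part of these cells in the results was not tested. At this harvest 0.86% of all genes were called higher and 0.31% lower. Without ozone 5, the array with the highest actin ratio, C8a passed (0.37 ± 0.08, adjusted p = 0.038) and Proc did not (0.15 ± 0.04, adjusted p = 0.12).

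The change of the ozone effect between harvests was tested next. It uses the same arrays as the comparisons above, so the results are not independent of them. From day 1 to day 2 the effect rose for 5 genes (13.9%, with 5.09% of all genes called, 3.13% higher and 1.96% lower): Klkb1 by 0.56 ± 0.13, Masp2 by 0.25 ± 0.07, F9 by 0.22 ± 0.06, F10 by 0.22 ± 0.06 and Proc by 0.20 ± 0.05 (adjusted p from 0.011 to 0.042). For F9, factor IX, day 1 read 4603 to 4937 (median 4780) after air and 4292 to 4953 (median 4370) after ozone. On day 2 it read 5328, 4821, 5020, 4538 and 4900 after air and 5341, 5429, 5170, 5118 and 5681 after ozone, so ozone arrays went from mostly below to mostly above. With single arrays left out, F9 and F10 each lost this call in 15 of 22 cases. Proc reversed with the mean of its probe sets (-0.080). Masp2 lost this call in 4 of 13 other settings, where its change was as low as 0.057 (limma, adjusted p up to 0.73). Mbl2 did not pass (0.16 ± 0.18). Without day 2 ozone 5, 1 gene passed (2.54% of all genes called), and without day 2 air 1, 9 did (7.67%). Without the 4 arrays 1 passed, and 2.68% of all genes were called.

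Between day 1 and 18 h the effect rose for 13 genes (36.1%) and fell for none, where 20.4% of all genes were called, 12.4% higher and 7.96% lower. Of these, 9 had fallen on day 1: C2, C8b, Cpb2, F10, Klkb1, Mbl2, Plg, Proc and Serpinf2. The sizes were 0.85 ± 0.13 for Klkb1 (adjusted p = 3.8e-05), 0.59 ± 0.18 for Mbl2, 0.33 ± 0.10 for Serpinf2, 0.32 ± 0.10 for C2 and 0.18 to 0.28 for the rest. The 0.28 is that of Proc, which reversed with the mean of its probe sets (-0.23, adjusted p = 0.042). C8a changed by 0.51 ± 0.11 (adjusted p = 0.00093), with a day 1 effect of -0.15 ± 0.07 that had not passed. At 18 h C2 read 1725, 1633, 1391, 1644 and 1673 after air and 1681, 1654, 1668, 1663 and 1665 after ozone, so the groups lay over each other again. Without 18 h air 3, the lowest C2 array, 6 genes passed (18% of all genes called). For 18 h minus day 2, 0 of 36 genes passed by limma (3 higher and 0 lower at an unadjusted p under 0.05, where 5.07% and 3.61% of all genes were), and 0.0086% of all genes were called lower and none higher. That count rests on few arrays. Without day 2 air 5, Mbl2 passed (0.62 ± 0.13, adjusted p = 0.015, with 1.86% of all genes called). Without the 4 arrays, Mbl2 (0.81 ± 0.10, adjusted p = 3.2e-06), Klkb1 (0.56 ± 0.11), C8a (0.41 ± 0.10) and Serpinf2 (0.30 ± 0.09) passed, all higher, with 9.74% of all genes called.

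A further 3 genes passed in the change from day 1 to 18 h without a call on day 1. Cfb went from 4260 to 4631 (median 4383) after air and 3969 to 4271 (median 4117) after ozone on day 1 to 4678, 4819, 4475, 4519 and 4473 against 5060, 4903, 4884, 4379 and 4754 at 18 h (change of effect 0.15 ± 0.06). F12 went from 3398 to 3713 (median 3608) and 3231 to 3602 (median 3405) to 3910, 3770, 3354, 3734 and 3570 against 3965, 3992, 4138, 3585 and 4108 (0.19 ± 0.06). C4bpa, the alpha chain of the C4b-binding protein, went from 5073 to 5612 (median 5379) and 4784 to 5273 (median 5110) to 5734, 6061, 5132, 5378 and 5350 against 6144, 6113, 6417, 5725 and 5618 (0.20 ± 0.07). In each, the ozone median lay below the air median on day 1 and above it at 18 h, and the groups overlapped at both. With single arrays left out, Cfb lost its call in 15 of 22 cases, C4bpa in 11 and F12 in 2.

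The air groups set the background for these shifts. By limma, 0 of 36 genes passed between the air groups of day 1 and day 2 (0 higher and 2 lower at an unadjusted p under 0.05, where 2.86% and 3.8% of all genes were, and 0.0086% of all genes called after adjustment) or between those of day 2 and 18 h (2 higher and 1 lower, against 5.76% and 3.65% of all genes, and 0.12% called after adjustment, 0.086% higher and 0.0344% lower). Mbl2 was lower between the later air groups without the 4 arrays (-0.33 ± 0.07, adjusted p = 0.0097, with 2.63% of all genes called). Between the ozone groups of day 1 and day 2, 18 genes rose and 1 fell, where 14.5% of all genes were called, 8.47% higher and 6.05% lower. Masp1 fell as well without the 4 arrays (-0.30 ± 0.07, adjusted p = 0.0040, with 11.5% of all genes called). The rises ran from 0.11 ± 0.04 for F2 to 0.48 ± 0.09 for Klkb1 and took in 8 complement and 10 coagulation genes. They included genes without a call against air, such as F9 (0.26 ± 0.05), Serping1, the C1 inhibitor (0.19 ± 0.05), and Serpind1, heparin cofactor II (0.13 ± 0.03). With single arrays left out, F2 lost its rise in 7 of 11 cases, Pros1 in 6, Mbl1 and Serpinc1 in 5 each, Vtn in 3 and Serping1 in 1. The other rises kept their call in all of these. Masp2 lost its call in 1 of 12 other settings, and Proc reversed in 1 (-0.054).

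C6 was the gene that fell between the ozone groups (-0.70 ± 0.13, adjusted p = 0.00045), and it differed by -0.33 ± 0.13 between the air groups of the same days (adjusted p = 0.73). Mbl2 did not pass between the ozone groups of day 1 and day 2 (-0.01 ± 0.13, 95% interval -0.27 to 0.24). From day 2 to 18 h under ozone, Masp1 (0.37 ± 0.12), Klkb1 (0.29 ± 0.09) and C8a (0.24 ± 0.08) rose and none fell, where 11.3% of all genes were called, 7.1% higher and 4.17% lower. These calls were lost with single arrays left out, for Masp1 and C8a in 8 of 10 cases and for Klkb1 in 9 of 10. With the 4 arrays left out 6 genes rose, with Mbl2, Proc and Cpb2 added, and 19.8% of all genes were called. Masp1 is a lectin pathway protease. Its air groups differed by 0.30 ± 0.12 between the same harvests (adjusted p = 0.36), and day 2 ozone 5, at 825, stood far above the other day 2 ozone arrays (447 to 526).

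By the brightest probe set, 8 of the 36 genes passed in none of the 10 comparisons: C3, C4bpb, C5, Cfd, Fga, Fgb, Fgg and Thbd. Thbd, thrombomodulin, is a product of endothelium rather than hepatocytes, and Cfd, factor D, is made largely by fat. Cd55 was not called against air without the filter, and between the ozone groups of day 1 and day 2 it was then higher by 0.10 ± 0.03 (adjusted p = 0.045).

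**Figure D4:**
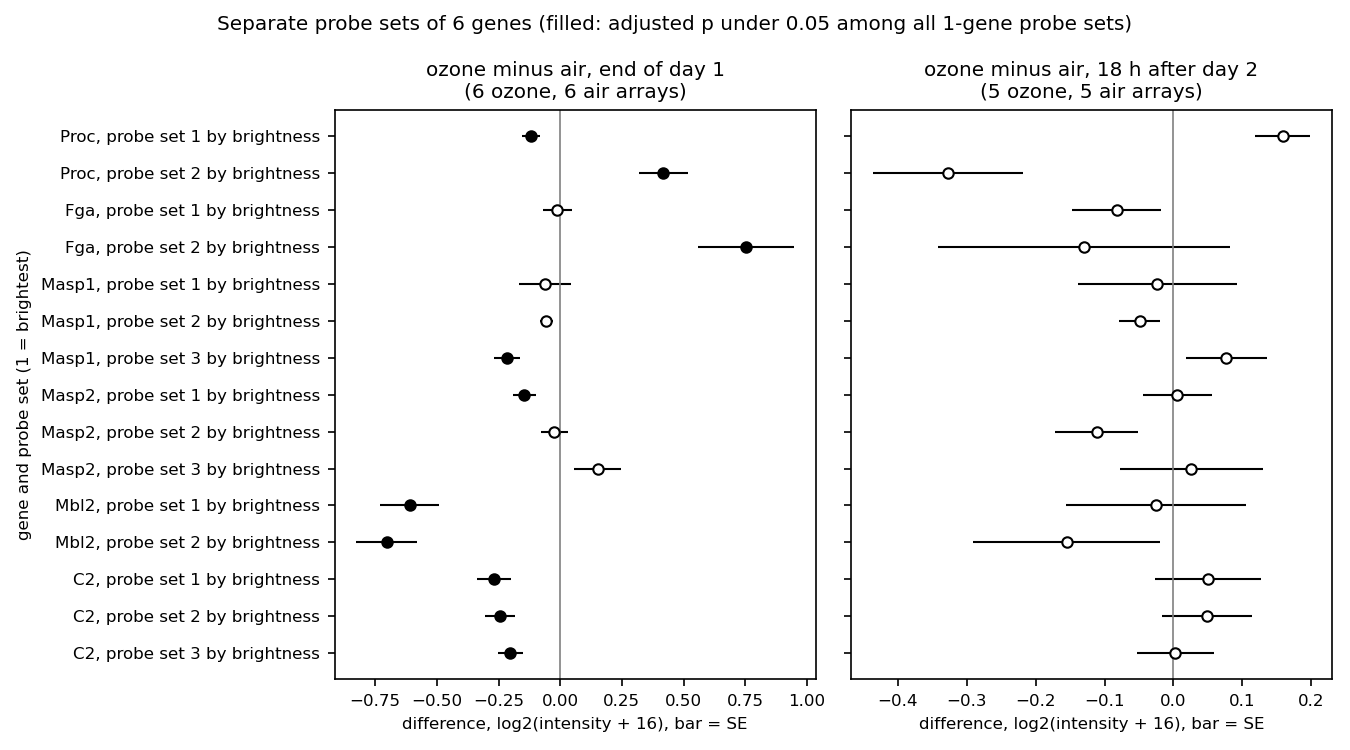
Difference in log2(intensity + 16) between ozone and air for each probe set of 6 genes, ordered by brightness within a gene (bars, standard error; filled points, adjusted p under 0.05 among all probe sets with 1 gene). All probe sets of Mbl2 and C2 are filled on the left of 0 on day 1, while the second probe sets of Proc and Fga are filled on the right.

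Of the 37 genes, 9 had several probe sets, and these did not always move alike. On day 1, both Mbl2 probe sets fell (-0.61 and -0.70 log2) and so did all 3 of C2 (-0.27, -0.24 and -0.20). For Masp1 only the dimmest of 3 fell (-0.21 ± 0.05), and for Masp2 only the brightest. The second Proc probe set went the opposite way: it read 411 to 580 (median 530) after air and 600 to 860 (median 675) after ozone, without overlap (0.42 ± 0.10, adjusted p = 0.0020). At 18 h it read 529, 656, 559, 613 and 519 after air and 415, 512, 466, 514 and 376 after ozone (-0.33 ± 0.11, adjusted p = 0.19). The direction of Proc therefore depends on the probe set, and among all probe sets its brighter one had an adjusted p of 0.056 at 18 h.

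Fga split as well. Its dimmer probe set read 2315 to 2649 (median 2533) after air and 2296 to 5705 (median 4465) after ozone on day 1. Of 6 ozone arrays, 5 lay above all air arrays and 1 below them (0.75 ± 0.19, adjusted p = 0.0041). Its brighter one did not pass, at -0.01 ± 0.06. On day 2 and at 18 h neither Fga probe set passed.

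Further genes of these pathways came from a list of 43, of which 33 were annotated and 26 tested. On day 1, 0 of 26 rose and 5 fell, a share near the 16.4% of all genes called lower, with a median of -0.07 log2. The 3 with the smallest p were Cr1l, a membrane regulator of complement (-0.19 ± 0.05, adjusted p = 0.0041), clusterin (Clu, -0.12 ± 0.03, adjusted p = 0.0060) and Hrg, a histidine-rich glycoprotein that binds plasminogen (-0.13 ± 0.04, adjusted p = 0.015). The other 2, named after their values were seen, were C1r, the protease that activates C1s (-0.21 ± 0.07), and Hgfac (-0.14 ± 0.05). On day 2 and at 18 h, 0 of 26 passed by limma (2 higher and 1 lower, and 3 higher and 2 lower, at an unadjusted p under 0.05, for which the shares of all genes stand above).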

How the data were processed

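Liver RNA of 32 samples was measured on Affymetrix rat arrays. The authors deposited linear probe-set intensity values, for which the submitters' processing notes list PLIER and Affymetrix Expression Console. Versions, background correction and scaling: not given in the sources used here. The offset added before the log understates differences of dim genes. Of 31139 probe sets, 97 controls, 11407 without a gene and 572 with several genes were left out. The offset was 16, and probe sets below the 25th percentile of mean level were dropped. A single limma model (version 3.58.1, R 4.3.3) held a mean for each group; its moderated two-sided tests let the variance follow the mean level, with Benjamini-Hochberg adjustment over 11629 genes. The script was tested on simulated data with known changes.

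Genes were named with values if they passed in an ozone minus air comparison or a change of the ozone effect, or lay just outside. Some that passed in neither were named beside them, such as C3, Mbl1, the fibrinogen genes, Serping1 and Serpind1. The genes and lists were chosen with earlier results of these data known. Replicate numbers were checked as pairs: 2 of 16 same-numbered pairs correlated over 0.1 (from -0.58 to 0.26), so they were not treated as pairs. Weak correlation cannot show that such arrays share nothing but a number. All 37 genes matched the RefSeq table by Entrez identifier. Figures used Python 3.11.15 and matplotlib 3.10.9.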

Additional observations from a re-analysis of the deposited data

Results flagged for a closer look

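Within groups of 5 or 6 arrays, 222 groups were tested for an array far from the rest by Dixon's ratio, the gap to the nearest array over the group's range, and 16 passed its 95% limit. Chance flags about 1 in 20 groups. At day 2, air 1 stood highest for Cfb (ratio 0.71, intensity 4961.5 against 4261 to 4453), C8a (0.78, 2811 against 2287 to 2394) and Vtn (0.745, 7926 against 7318 to 7469). Day 2 air 5 was lowest for Mbl2 (0.831, 2483 against 4442 to 4998). Day 2 ozone 5 was highest for Masp1 (0.734, 825 against 447 to 526) and Plg (0.745, 7172 against 6189 to 6426). At 18 h, air 3 was lowest for C2 (0.747, 1391 against 1633 to 1725) and C5 (0.867, 2680 against 2921 to 2960). Ozone 4 of that harvest was lowest for Vtn (0.747, 6957 against 7818 to 8133) and Serpinc1, antithrombin (0.777, 6447 against 7461 to 7780), and ozone 1 was lowest for Pros1 (0.842, 1383 against 1523 to 1551). On day 1, single ozone arrays stood apart for C9 (0.816, lowest at 5732), F9 (0.824, highest at 4953) and Fgb (0.688, highest at 10622). Single air arrays did so for Cd55 (0.64, lowest at 97.6) and Serpinf2 (0.844, highest at 2664).

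The ozone effect differed between harvests by limma's test of the difference for 18 combinations of gene and harvest pair. From day 1 to day 2, the effect on the log2 scale rose by 0.56 for Klkb1, 0.25 for Masp2, 0.22 for F9, 0.22 for F10 and 0.20 for Proc. From day 1 to 18 h it rose by 0.85 for Klkb1, 0.59 for Mbl2, 0.51 for C8a, 0.33 for Serpinf2, 0.32 for C2 and 0.28 for Proc. For Cpb2 it rose by 0.21, for F10 and C4bpa by 0.20, for C8b and F12 by 0.19, for Plg by 0.18 and for Cfb by 0.15. The share of all genes called in these comparisons stands in the report.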

How the results depend on the processing

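Among named genes, 601 results of other settings kept direction and call, 87 lost the call and 5 reversed; with single arrays left out, 652 kept both, 159 lost the call and 0 reversed. All 5 reversals were Proc with the mean of a gene's probe sets: 0.15 on day 1, -0.084 at 18 h, and changes of effect of -0.080 (day 2) and -0.23 (18 h) from day 1, with -0.054 between the ozone groups of day 1 and day 2. That mean also gave 2 genes higher on day 1, 1 higher at 18 h, 3 with a higher effect from day 1 to day 2, 2 with a lower one from day 1 to 18 h, and 2 lower between those ozone groups. Over all genes it called 29.6%, 1.01%, 5.12%, 20% and 14.5% in these comparisons, in either direction. Quantile normalization gave 1 gene lower on day 2, 2 lower between the ozone groups of day 1 and day 2, and 7 higher from day 2 to 18 h under ozone. Of all genes it called 1.18% on day 2 and 16.5% between those ozone groups of day 1 and day 2. Between the later ozone groups the main fit called 11.3% of all genes. Array weights gave 3 higher and 2 lower on day 2, 5 higher at 18 h, changes of effect in 9 (day 1 to day 2), 4 (day 2 to 18 h) and 21 (day 1 to 18 h), 1 higher and 1 lower between the later air groups, and 6 higher under ozone from day 2 to 18 h. Over all genes, array weights called 17.5% on day 2 (0.705% without weights), 5.28% at 18 h (1.17%), 8.14%, 8.97% and 26.4% for these changes of effect (5.09%, 0.0086% and 20.4%), 5.96% between the later air groups (0.12%) and 21.3% between the later ozone groups (11.3%), so calls rose over all genes too. Without the 4 arrays near another group the counts were 1 higher and 4 lower on day 2, changes of effect in 1 (day 1 to day 2) and 4 (day 2 to 18 h), 1 lower between the later air groups, 2 lower between the earlier ozone groups and 6 higher between the later ones. The shares of all genes called without these arrays stand in the report. Centring on the median gave 1 gene at 18 h and 1 from day 2 to 18 h under ozone, a fit of only the compared groups 0 and 1, and leaving out the 2 arrays low in nonspecific binding 2 changes of effect from day 1 to day 2. Of all genes at 18 h, centring called 0.636% and the fit of only the compared groups 0.0086%. Without the 2 arrays, 2.92% of all genes were called for that change of effect. The cause was not tested. With single arrays left out, day 1 gave 0 genes higher and 9 (without ozone 6) to 17 (without ozone 1) lower, day 2 gave 0 to 1 higher and 0 to 2 lower, and 18 h gave 0 to 2 higher and 0 lower. Of all genes, 27.5% were called on day 1 without ozone 6 and 30.1% without ozone 1. The share ran from 0.0086% to 8.41% on day 2 and from 0.275% to 3.53% at 18 h. Changes of effect ranged from 1 to 9 (day 1 to day 2), 0 to 1 (day 2 to 18 h) and 6 to 17 (day 1 to 18 h) genes higher, and 0 lower. The share of all genes called for these changes ran from 2.54% to 7.67%, 0% to 1.86% and 17.7% to 20.8%. The air groups gave 0, the earlier ozone groups 12 to 21 higher and 1 to 2 lower, and the later ones 0 to 6 higher and 0 lower. Between the earlier and the later air groups, up to 0.043% and 0.714% of all genes were then called. For the earlier and the later ozone groups, the main fit with every array called 14.5% and 11.3% of all genes.

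What a replicate number stands for is not in the labels, so blocks by number were fitted only as alternatives. With the replicate number as a block within harvest time, 9 genes fell on day 1, 1 rose at 18 h, 0 changed effect from day 1 to day 2 and 4 from day 1 to 18 h. Over all genes, 23.7%, 0.301%, 0.645% and 13.9% were then called in either direction. With a replicate block over all groups, 14 fell on day 1, 2 rose at 18 h, and 4 and 11 changed effect. The shares of all genes called were 27.8%, 0.783%, 3.96% and 18.7%. The number of arrays limits the precision.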
